A study of Mus musculus with 4 samples.

Results

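The Ube2 genes encode the ubiquitin-conjugating (E2) enzymes, and they were taken here as every gene listed with FPKM values whose symbol begins with Ube2. This gave 34 genes of the 17823 with values, while 3 more symbols (Ube2dnl1, Ube2dnl2 and Ube2d2b) were listed with no value in any library. RNA-seq had been carried out on blood of aging C57BL/6 mice given naringenin (Nar), a flavonoid of citrus fruit, and of controls given PBS. The 2 Nar and 2 control (Ctrl) libraries are numbered 1 and 3 in each group, and where a pair of values is given for a group, that of library 1 comes first. Per the paper, the mice were 12 months old and Nar was injected into the tail vein at 20 mg/kg for 1 month, while the sample labels give 30 days and describe the mice as adult. The comparison asks how Nar changed blood gene expression in aging mice. No transgene or deletion was named for either group, and the labels do not say whether a library is 1 animal or a pool, so the spread between libraries may be partly technical.

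E2 enzymes take activated ubiquitin from an E1 enzyme and, usually together with an E3 ligase, pass it to the target protein, and the choice of E2 helps to set which kind of ubiquitin chain is built. A few members carry ubiquitin-like proteins, among them Ube2l6 (ISG15, beside ubiquitin) and Ube2m and Ube2f (NEDD8). In late red cell development, ubiquitin tagging helps to clear ribosomes and other proteins, so that reticulocytes become cells filled with haemoglobin. Ube2l6, Ube2h and Ube2o are the 3 members known for strong induction in that lineage. Ube2h works with the CTLH ligase, and Ube2o is a large enzyme that joins E2 and E3 activity and tags ribosomal proteins in reticulocytes.

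The DNA just before the transcription start is shown for 3 members on which the results turn: Ube2l6, the most abundant, Ube2h, another of the red cell genes, and Ube2c, the member with the highest log2 fold change. The sequences come from RefSeq (GRCm38.p6, the build named in the submitters' processing notes), hold 250 bases before the start and are written 5′ to 3′ on the gene's strand. In Ube2l6 (chr2:84798578-84798827, plus strand) and Ube2h (chr6:30304540-30304789, minus strand), capitals mark GATAA, the GATA motif, and CCNCNCCC. The latter is a loose pattern that takes in CACCC-type and other C-rich letters. In Ube2c (chr2:164769679-164769928, plus strand), capitals mark CCAAT and TTTGAA, the core of the CHR element of cell cycle genes. Both strands were searched, so that a motif may be printed as its reverse complement.
Ube2l6: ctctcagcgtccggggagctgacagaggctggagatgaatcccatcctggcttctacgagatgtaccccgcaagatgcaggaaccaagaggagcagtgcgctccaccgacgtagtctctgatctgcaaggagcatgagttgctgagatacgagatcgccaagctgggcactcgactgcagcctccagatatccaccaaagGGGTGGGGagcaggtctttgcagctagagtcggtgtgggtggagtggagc
Ube2h: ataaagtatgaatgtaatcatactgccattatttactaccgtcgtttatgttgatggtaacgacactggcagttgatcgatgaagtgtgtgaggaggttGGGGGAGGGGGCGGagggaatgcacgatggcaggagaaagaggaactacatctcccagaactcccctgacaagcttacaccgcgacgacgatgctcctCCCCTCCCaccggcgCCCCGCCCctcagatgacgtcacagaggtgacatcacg
Ube2c: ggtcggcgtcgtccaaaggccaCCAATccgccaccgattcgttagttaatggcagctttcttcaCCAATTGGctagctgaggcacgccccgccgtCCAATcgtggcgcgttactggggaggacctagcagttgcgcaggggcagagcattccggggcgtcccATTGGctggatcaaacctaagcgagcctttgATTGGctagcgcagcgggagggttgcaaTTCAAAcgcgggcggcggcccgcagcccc

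The Ube2l6 window held 1 CCNCNCCC match, which contains CACCC on the opposite strand, and 0 GATAA matches. A further CACCC of that window, also on the opposite strand, falls outside the pattern and is not marked. The Ube2h window held 5 CCNCNCCC matches, some of them overlapping, and 0 GATAA matches. The marked letters of Ube2h do not contain CACCC on either strand. A further RefSeq start inside Ube2h had 1 match of each motif. The Ube2c window held 6 CCAAT matches, of which a pair overlap on opposite strands in CCAATTGG, and 1 TTTGAA match. RefSeq promoters were at hand for 27 of the 34 members (38 starts, as 8 members have more than 1), but not for the other 7, which include Ube2d2a, Ube2e3, Ube2g2, Ube2o, Ube2v2 and Ube2w. CCNCNCCC lay in 31 of these 38 windows (81.6%) against 45.9% of all promoters, and GATAA in 3 (7.89%) against 22.6%. TTTGAA lay in 3 (7.89%) against 16.0% of all promoters, CCAAT in 7 (18.4%) against 33.8%, and the interferon-stimulated response element in 0 against 2.98%. These are matches of letters, and starts of 1 gene can share bases, so no test was made.

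The make-up of the libraries bears on every Ube2 value. FPKM (fragments per kilobase of transcript, scaled to the mapped fragments of a library) gives a gene's share of its library per length of transcript. Haemoglobin genes took 95.12% and 92.59% of the summed FPKM in Ctrl and 95.75% and 96.4% in Nar, so both Nar shares were the higher. The number of reads behind the values is unknown, so no counting error can be given. The typical gene was lower in the Nar libraries: among 5339 tested genes, those whose FPKM averaged at least 0.5, the median log2 fold change (Nar against Ctrl) was -1.07. With haemoglobin genes removed (5331 genes left) it was -0.56. When each library was divided by its median ratio to the average library, the median became -0.06, and a fold change on that scale is called rescaled. Erythroid markers were abundant (summed FPKM 8462 and 10224 in Ctrl, 10325 and 9541 in Nar), with 0 of 19 tested genes called and a median log2 fold change of 0.37 (1.47 after rescaling). Both Nar values were the higher for 6 of the 19, beside 1.27% of all genes tested, and the lower for 1, beside 78.3%. That gene was Gata1, with 4.23 and 12.55 FPKM in Ctrl and 3.42 and 3.06 in Nar (log2 fold change -1.15, and -0.06 after rescaling). Klf1 lay at 0.03 to 0.2 FPKM. All 11 neutrophil markers were called lower (3 after rescaling), and their summed FPKM went from 1737 and 1436 in Ctrl to 105 and 164 in Nar. Monocyte markers summed to 341 and 411 in Ctrl and to 139 and 95.7 in Nar. Most of each sum was Lyz2 alone (295.37 and 372.72 in Ctrl, 130.74 and 92.64 in Nar). Of these markers, 4 of 6 were called lower (0 after rescaling), where 39.6% of all genes tested were called lower, and the groups overlapped for Cx3cr1. The neutrophil and monocyte sums were thus apart between the groups, on the deposited scale. Platelet markers summed to 617 and 1994 in Ctrl and to 510 and 403 in Nar (0 of 5 called), and B cell markers to 26.1 to 33.9 in all libraries (0 of 5 called). T cell markers summed to 2.33 to 5.2 (0 of 4 tested called) and NK cell markers to 2.13 to 8.8 (0 of 3 called). The platelet and NK cell sums were lower in both Nar libraries than in both controls, whereas the B and T cell sums overlapped. The part of these shifts in the Ube2 values was not tested, and fewer cells of a type and less RNA per cell cannot be told apart in whole blood.

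Ube2l6 (NCBI Gene 56791, chr2:84798828-84810003) dominated the family, since it was among the 9 genes with the highest FPKM of the whole blood transcriptome in every library. Its rank among all genes was 9 in both control libraries and 8 in both Nar libraries. Ube2o (chr11:116537740-116581503) came next in the family, with a rank among all genes of 62 and 55 in Ctrl and 40 and 39 in Nar. Ube2h (chr6:30211289-30304539), in contrast, had rank 12 in the family in both groups and ranks of 702 to 1110 among all genes. Between Ube2o and Ube2h lay 9 members that are not among the red cell genes named above, the highest being Ube2b, Ube2r2 and Ube2c. Of the 34 members, 7 exceeded 10 FPKM in all 4 libraries and 16 exceeded 1 FPKM.

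**Figure D1:**
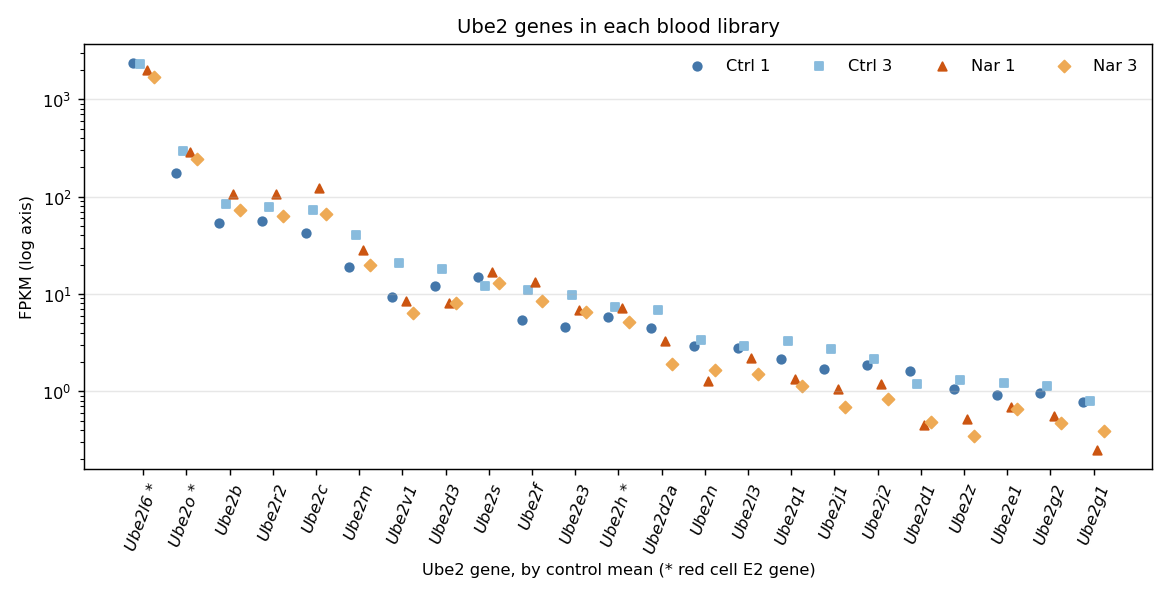
FPKM (log axis) of the tested Ube2 genes named in the text, ordered by their control mean, with 1 point per blood library (2 Ctrl in blue, 2 Nar in orange) and an asterisk for red cell E2 genes. Ube2l6 lies between 1710.78 and 2349.23 FPKM, and from Ube2d2a downward both Nar points lie below both Ctrl points for every gene.

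The summed FPKM of the family was 2774.8 and 3001.8 in Ctrl and 2724.5 and 2236.6 in Nar. Both Nar sums were below both control sums (2888 ± 161 in Ctrl against 2481 ± 345 in Nar, mean ± SD, n = 2 each, exact two-sided permutation p = 0.33). With 2 libraries against 2, a single value cannot give a smaller p than 0.33. As a share of all FPKM outside haemoglobin, the family took 3.71% and 2.74% in Ctrl and 4.13% and 3.92% in Nar, so that on this base both Nar values were the higher (3.23% ± 0.686 against 4.03% ± 0.148, SD, n = 2 each, exact permutation p = 0.33).

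Ube2l6 by itself made up 84.7% and 77.4% of the family sum in Ctrl and 73.3% and 76.5% in Nar (81.1% ± 5.16 against 74.9% ± 2.26, SD, n = 2 each, exact permutation p = 0.33). The groups did not overlap, but the Ctrl 3 value lay close to that of Nar 3. Ube2o made up 6.37% and 9.71% in Ctrl and 10.5% and 10.9% in Nar. Ube2h never exceeded 0.261%. Together the red cell genes held 91.2% and 87.4% of the family sum in Ctrl and 84.1% and 87.6% in Nar, which overlap (89.3% ± 2.69 against 85.8% ± 2.47, SD, n = 2 each, exact permutation p = 0.67). Ube2b, Ube2r2 and Ube2c together held 5.47% and 7.81% in Ctrl and 12.4% and 9.07% in Nar. Without Ube2l6, the other members summed to 425.6 and 677.2 FPKM in Ctrl and to 726.7 and 525.9 in Nar, which overlap (551 ± 178 against 626 ± 142, SD, n = 2 each, exact permutation p = 0.67).

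**Figure D2:**
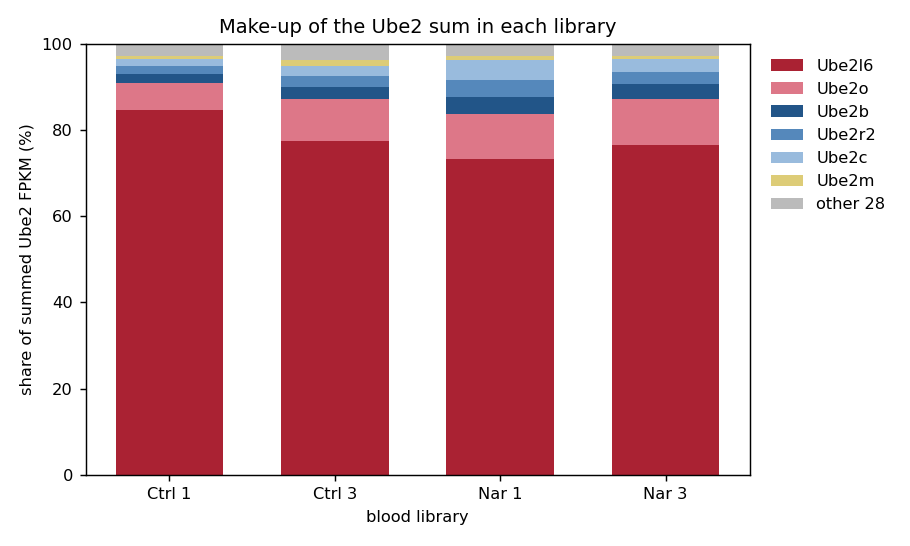
Share (%) of the summed Ube2 FPKM held by 6 genes and by the other 28 in each of the 4 blood libraries, as stacked bars from 0 to 100. Ube2l6 fills 73.3% to 84.7% of every bar, and Ube2o 6.37% to 10.9%.

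Of the 24 Ube2 genes tested, 3 were called lower with Nar (Ube2d1, Ube2j1 and Ube2z) and 0 higher, where a call is a limma adjusted p under 0.05 over all genes tested. This is 12.5% of the tested members, beside 39.6% of all genes tested called lower and 0.187% called higher. A further 7 members had an unadjusted limma p under 0.05, so that 10 did in all, beside 56.9% of all genes tested. After rescaling, limma called 0 members, beside 0.468% of all genes, and 7 members had an unadjusted p under 0.05, all higher (beside 6.18% of all genes that were higher with such a p): Ube2b, Ube2c, Ube2f, Ube2l6, Ube2o, Ube2r2 and Ube2s (lowest limma adjusted p 0.178). The Nar values did not overlap the control values and were the lower for 15 members (62.5%, beside 78.3% of all genes) and the higher for 0 (beside 1.27%), while 9 overlapped. The members' median log2 fold change was -0.75, and 0.32 after rescaling. It ranged from -1.40 to 0.71 before rescaling, and 19 of the 24 members lay above the median of all genes.

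Fold changes within the family differed with level. The 12 members with a mean FPKM of at least 5 had a median log2 fold change of 0.08 (1.17 after rescaling), while all 1083 genes at that level had -0.94. Only 3 of these 12 (Ube2l6, Ube2v1 and Ube2d3) had both Nar values below both control values (25.0%, beside 62.7% of the genes at that level), and 0 were called (lowest limma adjusted p 0.152), beside 15.8% of the genes at that level called lower. The 12 tested members under 5 FPKM had a median of -1.05, beside -1.11 for all 4256 genes at that level, and in all 12 both Nar values were below both control values (beside 82.2% of the genes at that level). Of these 12, 3 were called lower, beside 45.6% at that level. With at least 0.5 FPKM in both groups, a limit set after the data were seen, 9 of the 12 were left, with a median of -0.95 (-1.02 for 2670 genes) and with both Nar values the lower in all 9 (77.0% of those genes). After rescaling, the log2 fold changes of the 12 abundant members ran from 0.18 to 1.82, and those of the 12 scarcer members from -0.42 to 0.44. All genes at those levels had rescaled medians of 0.16 and -0.11. The 7 members with an unadjusted limma p under 0.05 after rescaling were all abundant ones. Of all 1083 genes at that level, 204 had such a p in either direction.

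**Figure D3:**
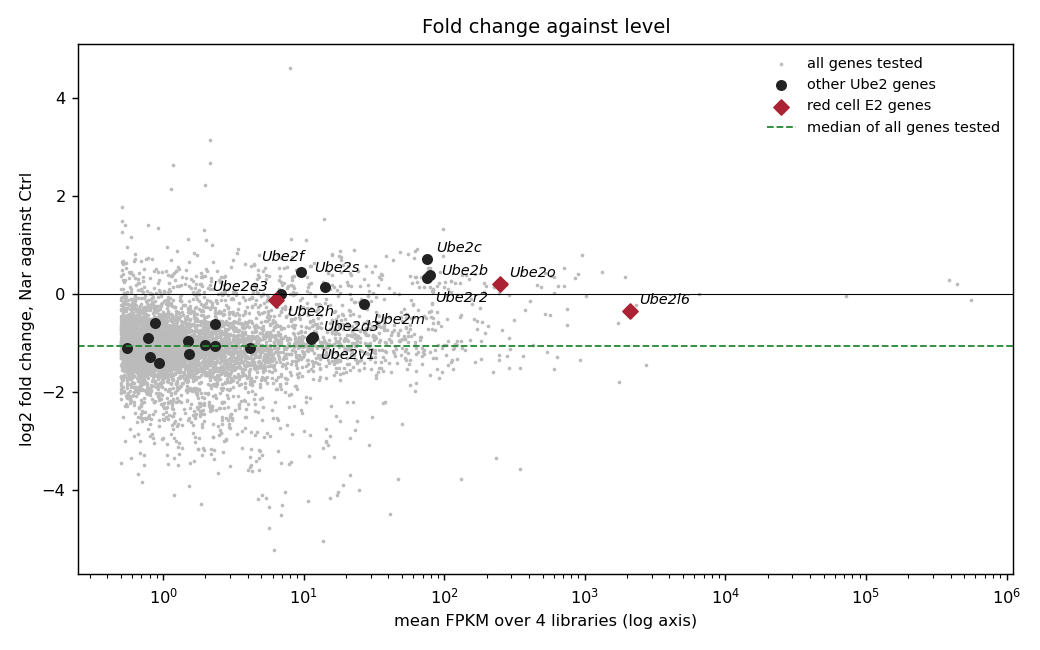
Log2 fold change (Nar against Ctrl, deposited FPKM) against mean FPKM over the 4 libraries (log axis) for all 5339 genes tested (grey), the red cell E2 genes (red diamonds) and other tested Ube2 genes (black), with the median of all genes as a dashed line at -1.07. Ube2 genes of at least 5 FPKM lie between -0.92 and 0.71, all above the dashed line.

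Ube2l6, which also transfers ISG15, had 2349.23 and 2324.6 FPKM in Ctrl and 1997.88 and 1710.78 in Nar. Both Nar values were below both control values, by a log2 fold change of -0.34 ± 0.30 (SE, limma adjusted p = 0.335), which did not pass the test. The direction turned with the scale, as the rescaled log2 fold change was 0.77 (limma adjusted p = 0.296) and the value after removal of haemoglobin genes was 0.28. Its level beside Alas2, the erythroid enzyme that starts haem synthesis, was 38.8% and 33.3% in Ctrl and 30.8% and 26.4% in Nar, a ratio chosen after the values were seen.

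Ube2o had 176.65 and 291.43 FPKM in Ctrl and 285.44 and 242.73 in Nar. Ctrl 1 was the lowest library and Ctrl 3 the highest, so both Nar values lay between the controls (log2 fold change 0.21 ± 0.47, SE, limma adjusted p = 0.695, and 1.32 after rescaling, adjusted p = 0.252). Ube2h had 5.8 and 7.43 FPKM in Ctrl and 7.12 and 5.1 in Nar. These values overlap too, with a log2 fold change of -0.12 ± 0.46 (SE, limma adjusted p = 0.824) that turned to 0.97 after rescaling (adjusted p = 0.376).

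The red cell genes had a median log2 fold change of -0.12 and the 21 other tested members one of -0.90, a difference of 0.78 in the log2 fold change. This comparison depended on level: against the 9 other members of at least 5 FPKM, whose median log2 fold change was 0.15, the red cell genes were lower by a difference of -0.28. Ube2o lay above and Ube2l6 below the median of those 9. Members are not replicates, so neither difference was tested. On the level scale, the median log2 FPKM of the red cell genes exceeded that of the other tested members by 5.86 and 6.39 in Ctrl and by 6.95 and 7.1 in Nar.

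**Figure D4:**
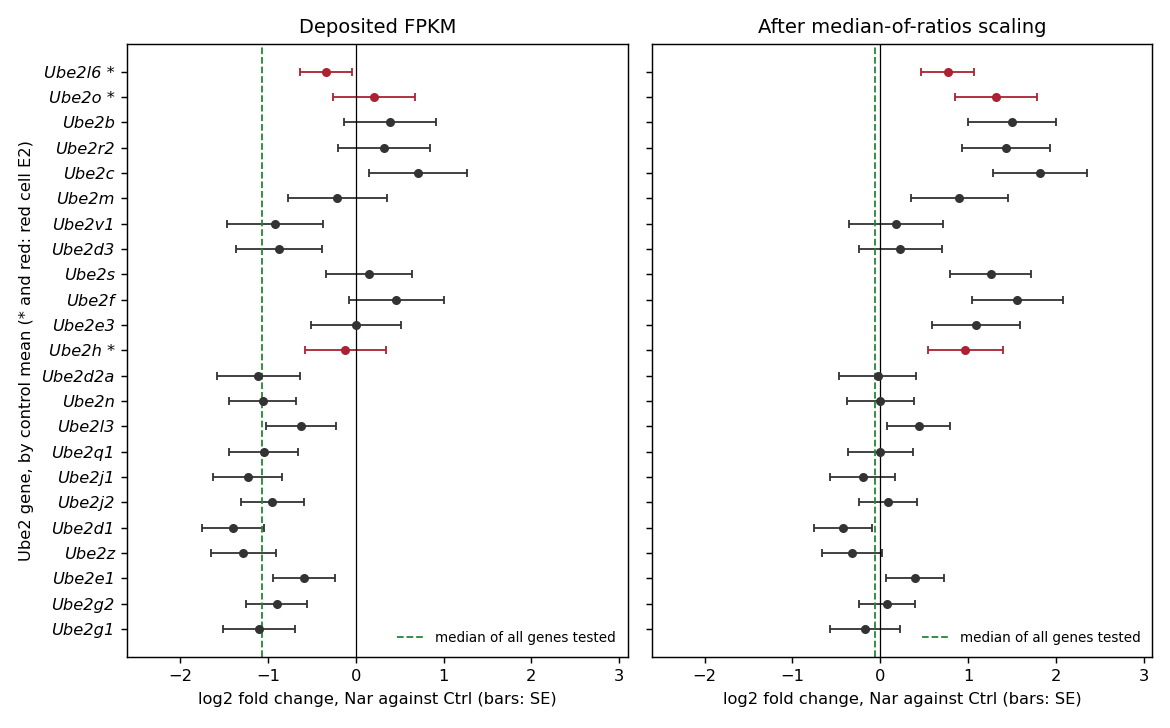
Log2 fold change with SE (limma) of the tested Ube2 genes named in the text, from the deposited FPKM values (left) and after median-of-ratios scaling (right), with red cell E2 genes in red and the median of all genes tested as a dashed line. From Ube2d2a downward the left-hand values lie from -1.40 to -0.59, and the right-hand values from -0.42 to 0.44.

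The abundant members outside the red cell group included enzymes of the cell cycle and of chromatin. Ube2c, which starts ubiquitin chains for the anaphase-promoting complex (APC/C), had 42.08 and 72.24 FPKM in Ctrl and 123.46 and 65.84 in Nar. Nar 1 was the highest library, while Nar 3 lay between the controls. Its log2 fold change was the highest of the family, 0.71 ± 0.56 (SE, limma adjusted p = 0.283), and 1.82 after rescaling (adjusted p = 0.178). With 1 library left out, the value before rescaling ran from 0.26 (without Nar 1) to 1.16 (without Nar 3). Ube2s, which extends the chains that Ube2c begins, had 14.78 and 11.96 FPKM in Ctrl and 16.95 and 12.94 in Nar, with overlapping groups.

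Ube2b, the RAD6 homologue that acts in DNA damage tolerance and histone H2B ubiquitination, had 53.85 and 84.46 FPKM in Ctrl and 107.4 and 73.01 in Nar. Ube2r2, a CDC34-type partner of cullin ligases, had 55.9 and 77.81 FPKM in Ctrl and 106.03 and 64.04 in Nar. Both genes were highest in Nar 1 and lowest in Ctrl 1, as was Ube2c. Their log2 fold changes were 0.39 ± 0.52 for Ube2b and 0.32 ± 0.52 for Ube2r2 (SE, limma adjusted p = 0.517 and 0.597). With 1 library left out they ran from 0.07 to 0.72 for Ube2b and from -0.04 to 0.68 for Ube2r2. In FPKM, Ube2b, Ube2r2 and Ube2c could not be ordered, because their library values overlap.

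The NEDD8 enzymes did not pass the test either. Ube2m, which charges cullins with NEDD8, had 18.86 and 40 FPKM in Ctrl and 28.26 and 20 in Nar. Its log2 fold change of -0.21 ± 0.56 (SE, limma adjusted p = 0.752) turned to 0.90 after rescaling. Ube2f, the other NEDD8 enzyme, had 5.35 and 10.94 FPKM in Ctrl and 13.19 and 8.5 in Nar, with a log2 fold change of 0.46 ± 0.54 (SE, limma adjusted p = 0.463). Ube2e3 lay at a similar level, from 4.6 to 9.67 FPKM, with overlapping groups.

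Ube2d3 and Ube2v1 were the abundant members, besides Ube2l6, whose groups did not overlap. Ube2d3, a general-purpose E2 used by many E3 ligases, had 12.07 and 18.14 FPKM in Ctrl and 8.04 and 8.06 in Nar (log2 fold change -0.87 ± 0.49, SE, limma adjusted p = 0.152, and 0.23 after rescaling). Ube2v1, an inactive E2 variant that joins Ube2n to build lysine 63 chains, had 9.23 and 21.04 FPKM in Ctrl and 8.44 and 6.33 in Nar (log2 fold change -0.92 ± 0.55, SE, limma adjusted p = 0.173, and 0.18 after rescaling). In fold change both genes lay below the other abundant members and within the range of the scarcer ones, -1.40 to -0.59. Without Ctrl 3, Ube2v1 was at -0.33, above Ube2l6 (-0.35), so its place depended on that library, and Ube2d3 was at -0.58.

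The members under 5 FPKM held the 3 called genes. Ube2d1, of the same subfamily as Ube2d3, had 1.63 and 1.19 FPKM in Ctrl and 0.45 and 0.48 in Nar, the lowest log2 fold change of the family (-1.40 ± 0.35, SE, limma adjusted p = 0.0223). Ube2z, which is charged by the E1 enzyme Uba6, had 1.06 and 1.32 FPKM in Ctrl and 0.52 and 0.35 in Nar (-1.28 ± 0.37, SE, limma adjusted p = 0.0303). Ube2j1, an enzyme of the endoplasmic reticulum membrane that serves protein degradation there, had 1.69 and 2.7 FPKM in Ctrl and 1.05 and 0.69 in Nar (-1.23 ± 0.39, SE, limma adjusted p = 0.0391). Beside the typical gene the 3 differed little, with rescaled log2 fold changes of -0.42, -0.32 and -0.20 (limma adjusted p of 0.7 or more). Leaving out 1 library left 0 of them called, but without Ctrl 1, and likewise without Ctrl 3, limma called 0 of all 5339 genes, and log2 fold changes stayed at -1.61 to -1.19 for Ube2d1, -1.51 to -1.05 for Ube2z and -1.55 to -0.91 for Ube2j1. Ube2d1 and Ube2z, and Ube2g1 among the members not called, had a Nar mean under 0.5 FPKM and passed the filter through their control values. With a mean of at least 0.5 FPKM in both groups, 21 members were left, of which 1 (Ube2j1) was called, beside 32.3% of 3748 genes called lower. Ube2j1 lost its call with a pseudocount of 1 (limma adjusted p = 0.0527) and in limma without the trend (adjusted p = 0.0538).

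Ube2d2a, also of the Ube2d subfamily, had 4.52 and 6.77 FPKM in Ctrl and 3.31 and 1.9 in Nar (log2 fold change -1.11 ± 0.47, SE, limma adjusted p = 0.0788), which rescaling brought to -0.03. It is among the 9 members under 5 FPKM that were not called, with adjusted p-values of 0.0535 to 0.197 in limma. Ube2n, the active partner of Ube2v1, missed the threshold most narrowly (limma adjusted p = 0.0535). The others include Ube2l3, the relative of Ube2l6 that works with parkin, Ube2j2 and Ube2g2, which act at the endoplasmic reticulum, and Ube2q1, Ube2e1 and Ube2g1. Apart from Ube2d2a, the library values of those named ran from 0.25 to 3.38 FPKM, and for each of them both Nar values were below both control values.

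The remaining 10 members were not tested because of their low mean. These are Ube2a (the second RAD6 homologue), Ube2q2, Ube2k (an enzyme of lysine 48 chains), Ube2e2, Ube2w (which tags the N terminus of proteins), Ube2v2 (an inactive variant like Ube2v1), Ube2t (of the Fanconi anaemia pathway), Ube2ql1, Ube2u and Ube2cbp. Their highest library value was 0.78 FPKM. In 4 of the 10 (Ube2a, Ube2q2, Ube2k and Ube2w) both Nar values were below both control values, beside 40.4% of the 11043 genes above 0 in some library that were likewise not tested, so the count is near that share. In 5 the groups overlapped. Both Nar values were the higher for 1 (beside 3.5% of those genes): Ube2cbp was listed at 0 in Ctrl and at 0.02 in both Nar libraries, where values are rounded to 2 decimals. Ube2cbp is an E3 ligase that binds Ube2c and is not itself an E2. Ube2u was listed at 0 in 3 libraries.

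Genes that work with these enzymes had 0 calls after rescaling in every list, so the calls that follow hold for the deposited scale, on which 39.6% of all genes tested were called lower. The counts of called genes in the lists are to be read against that share. Pias1, Rmnd5b, Anapc11 and Sel1l, among the called genes named, had a Nar mean under 0.5 FPKM and passed the filter through their control values. Of ubiquitin itself and its E1 enzymes, 0 of the 3 genes tested were called, with 0 also after rescaling (limma). Ubb, a polyubiquitin gene, had 667.03 and 1698.26 FPKM in Ctrl and 1326.09 and 1589.01 in Nar, with a log2 fold change of 0.45 (limma adjusted p = 0.406). Ctrl 1 was the lowest library and Ctrl 3 the highest, so that both Nar values lay between the controls. Rps27a, a fusion of ubiquitin to a ribosomal protein, had 2.6 to 6.76 FPKM (log2 fold change -0.93, limma adjusted p = 0.104). Uba1, the main E1, had 6.26 and 11.78 FPKM in Ctrl and 5.62 and 3.52 in Nar (log2 fold change -0.93, limma adjusted p = 0.146). On rescaling, Rps27a turned to 0.15 and Uba1 to 0.16.

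In the ISG15 system, served by Ube2l6, 1 of 4 tested genes was called lower. Isg15, the modifier, had 51.7 and 114.53 FPKM in Ctrl and 90.85 and 76.03 in Nar (log2 fold change 0.11, limma adjusted p = 0.865). Uba7, its E1, had 5.14 and 7.27 FPKM in Ctrl and 2.27 and 1.53 in Nar (log2 fold change -1.66, limma adjusted p = 0.0248, and -0.59 after rescaling, adjusted p = 0.637). In FPKM, Ube2l6 exceeded both its modifier and the E1 of its pathway in every library. In the NEDD8 system 1 of 5 genes was called lower, Rbx1, the RING partner of Ube2m (log2 fold change -1.15, limma adjusted p = 0.032), which is named here after its value was seen. Nedd8 had the lowest log2 fold change, -1.19 (limma adjusted p = 0.0656). Rnf7, the RING partner of Ube2f, had 0.49 and 0.46 FPKM in Ctrl and 0.77 and 0.6 in Nar, with both Nar values the higher (0.44, limma adjusted p = 0.326), and it passed the filter through its Nar values. In the SUMO system 2 of 6 were called lower, the E3 genes Pias1 (-2.21, limma adjusted p = 0.00878) and Pias3 (-1.29, limma adjusted p = 0.0348), the latter named after its value was seen. Sumo3 had the highest log2 fold change of that list, -0.51 (limma adjusted p = 0.223), and was not called. Sumo2 was listed at 0 in all libraries.

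The CTLH ligase is the partner of Ube2h, and 4 of its 8 tested genes were called lower. Maea, a RING subunit, had 2.47 and 4.72 FPKM in Ctrl and 1.3 and 1.22 in Nar (log2 fold change -1.37, limma adjusted p = 0.0358, and -0.32 after rescaling). It lost its call with the replicate block (limma adjusted p = 0.0509). Rmnd5b, another RING subunit, had the lowest value (-1.49, limma adjusted p = 0.0401), and Ranbp10 the highest (0.38, limma adjusted p = 0.532). Groups overlapped for Rmnd5a, with 5.91 and 7.57 FPKM in Ctrl and 7.75 and 6.05 in Nar (0.03, limma adjusted p = 0.952). They also overlapped for Ranbp10, Wdr26 (0.10) and Ypel5 (-0.33). Rmnd5a, Wdr26 and Ypel5 are named here after their values were seen. Both Nar values were the lower for 4 of the 8, beside 78.3% of all genes tested. In the APC/C, the partner of Ube2c and Ube2s, 4 of 7 tested genes were called lower. Anapc11, its RING subunit, had 0.92 and 1.8 FPKM in Ctrl and 0.45 and 0.44 in Nar (log2 fold change -1.35, limma adjusted p = 0.0323). Fzr1, its activator outside mitosis, had 4.12 and 6.34 FPKM in Ctrl and 8.52 and 8.63 in Nar, with both Nar values above both control values (log2 fold change 0.73, limma adjusted p = 0.197). Ube2c and Ube2s exceeded all tested APC/C genes in FPKM in each library.

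Of the ligases that remove proteins from the endoplasmic reticulum (ERAD), partners of Ube2j1, Ube2j2 and Ube2g2, 4 of 5 tested genes were called lower, from Sel1l (-1.29, limma adjusted p = 0.0359) to Rnf139 (-1.06, limma adjusted p = 0.0489). Rnf139 lost its call with the replicate block (limma adjusted p = 0.0591), without the trend (0.0668) and with a pseudocount of 1 (0.0622). Of E2-fold genes with other names, 1 of 4 tested genes was called lower: Atg3, the E2-like enzyme of autophagy (-2.23, limma adjusted p = 0.00553, and -1.21 after rescaling, adjusted p = 0.165). Ufc1, the enzyme of the UFM1 modifier, had the highest log2 fold change of that list (-0.55, limma adjusted p = 0.219). Cdc34, the relative of Ube2r2, had 3.44 and 5.27 FPKM in Ctrl and 2.58 and 2.38 in Nar (-0.76, limma adjusted p = 0.153, and 0.32 after rescaling). The medians over tested genes were -0.93 for ubiquitin and its E1, -0.64 for ISG15, -0.74 for NEDD8, -0.94 for SUMO, -0.69 for CTLH, -1.14 for APC/C, -1.28 for ERAD and -0.80 for the E2-fold genes, beside -1.07 for all genes tested.

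**Figure D5:**
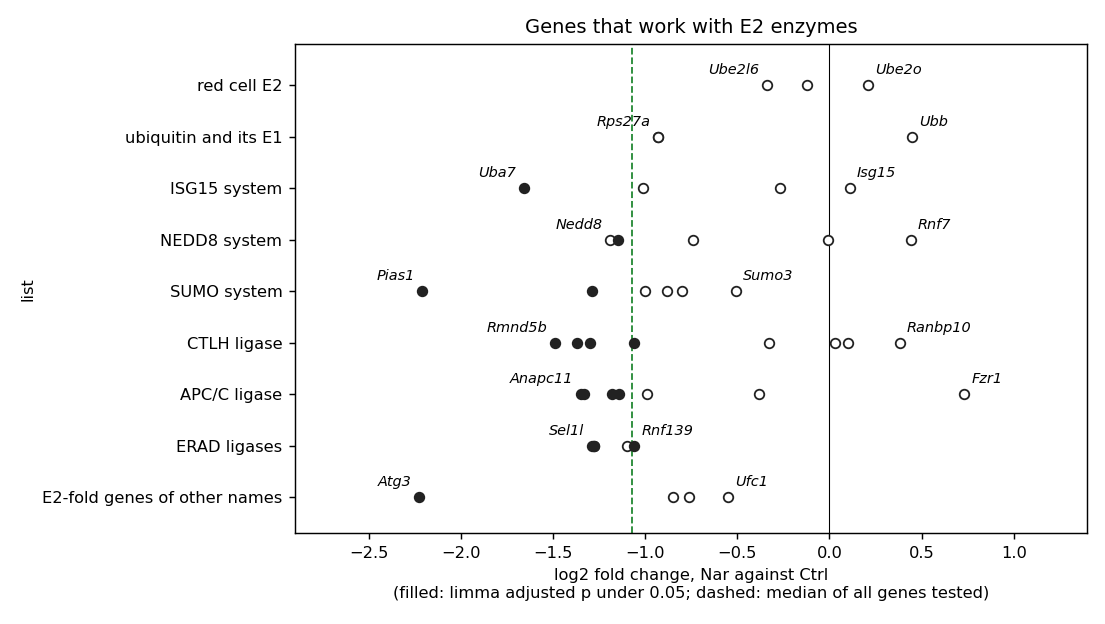
Log2 fold change (Nar against Ctrl, deposited FPKM) of the tested genes in 9 lists that work with E2 enzymes, 1 point per gene, filled where the limma adjusted p is under 0.05, with the highest and lowest gene of each list named and the median of all genes tested as a dashed line. Called genes lie from -2.23 (Atg3) to -1.06, and 0 genes of the red cell E2 list are filled.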

How the data were processed

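Blood mRNA of Nar-treated and control mice was purified with oligo(dT) and sequenced, with 2 libraries for each group. Groups were taken from the sample labels. The paper's methods name bowtie-2 alignment to reference gene sequences and DEGseq, while the submitters' processing notes list TopHat2, Cufflinks and GRCm38. The values the authors deposited are FPKM for each gene with 2 decimals, and 0 columns were left unmatched. Depth is unknown.

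Differences were computed on log2(FPKM + 0.1), which understates changes of low genes, for genes averaging at least 0.5 FPKM. limma 3.58.1 in R 4.3.3 gave the tests (lmFit, eBayes with trend) and Benjamini-Hochberg adjustment, after a check on simulated data. Every adjusted p-value comes from limma. Shares were compared by exact two-sided permutation tests (scipy 1.17.1). Figures used matplotlib 3.10.9 under Python 3.11.15.

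Members, lists and markers were chosen with earlier results of these data known. All Ube2 genes were to be named. One member and a pair of genes of the related lists are not reported here by name; the member stays in the counts and sums of the family, and the pair was left out of its list. Values in all libraries were given for the red cell genes, the 8 other tested members with the highest control means and the 4 other tested members at each end of the log2 fold changes. Of each related list, the highest and lowest tested genes were named, together with Ubb, Rps27a, Uba1, Uba7, Isg15, Maea and Cdc34. Alternatives were other pseudocounts (1 and 0.01), filters, scalings (TPM, haemoglobin removed, median of ratios), limma without the trend, the replicate block and leaving out each library.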

Additional observations from a re-analysis of the deposited data

How the results depend on the processing

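The count of called Ube2 genes depended on the processing. It was 3 as reported, 5 as TPM (adding Ube2g1 and Ube2n), 3 with the replicate block, 3 with a pseudocount of 0.01, 2 with a pseudocount of 1 and 2 in limma without the trend (both losing Ube2j1). It was 0 with haemoglobin genes removed (5 of 24 at an unadjusted p under 0.05), with a mean FPKM of at least 5 (0 of 12), after median-of-ratios scaling (7 of 24) and with no filter on low values (13 of 34), all by limma. Leaving out any 1 library gave 0 to 0 calls (2 to 10 of 24 at an unadjusted p under 0.05), with the lone library assumed to vary like the others; over all 5339 genes it gave 0 calls without Ctrl 1 or Ctrl 3, 259 without Nar 1 and 213 without Nar 3, so a Ube2 count of 0 says little. With the numbers crossed, a pairing added after seeing the data, 8 Ube2 genes and 3233 genes in all were called. The library numbers come only from the sample titles. Deviations of same-numbered libraries from their group means had a weak negative correlation (-0.153 across genes). This value does not settle whether such libraries are pairs, and they were not taken as pairs. The replicate block called 1815 genes, against 2123 without it.

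The median log2 fold change of the Ube2 genes was -0.15 with haemoglobin genes removed, 0.08 at a mean FPKM of at least 5, 0.32 after median-of-ratios scaling, -0.43 with a pseudocount of 1, and -0.90 to -0.49 with 1 library left out (-0.49 without Ctrl 3). The red cell genes less the others gave -0.28 at a mean FPKM of at least 5, 0.34 with a pseudocount of 1, 0.51 without the filter and 0.51 to 0.83 with 1 library left out (0.51 without Nar 1). The Nar less Ctrl difference in the red cell genes' share of the family, -3.45 percentage points, was -1.55 without Ctrl 1, -5.35 without Ctrl 3, -1.70 without Nar 1 and -5.20 without Nar 3.

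Median-of-ratios scaling raised the log2 fold changes together (median of all genes from -1.07 to -0.06), so that genes between about that shift and 0 came out at 0 or above: Ube2l6 (0.77), Ube2m (0.90), Ube2v1 (0.18), Ube2d3 (0.23), Ube2e3 (1.09), Ube2h (0.97), Ube2n (0.00), Ube2l3 (0.44), Ube2j2 (0.09), Ube2e1 (0.40), Ube2g2 (0.08), Rps27a (0.15), Uba1 (0.16), Cdc34 (0.32), Sumo3 (0.48) and Ufc1 (0.50). Removal of haemoglobin genes, likewise a common shift, gave Ube2l6 (0.28), Ube2m (0.41), Ube2e3 (0.62), Ube2h (0.50), Sumo3 (0.05) and Ufc1 (0.04). Leaving out 1 library turned the sign of genes with overlapping groups, with ranges of -0.15 to 0.58 for Ube2o, -0.04 to 0.68 for Ube2r2, -0.75 to 0.33 for Ube2m, -0.04 to 0.35 for Ube2s, -0.05 to 0.97 for Ube2f, -0.53 to 0.52 for Ube2e3, -0.36 to 0.12 for Ube2h, -0.23 to 1.12 for Ubb, -0.46 to 0.68 for Isg15 and -0.16 to 0.93 for Ranbp10. Over 42 named genes and 504 values, 388 kept their direction and side of the threshold, 70 lost the call, 10 gained one and 36 changed sign, of which 16 under median-of-ratios scaling and 6 with haemoglobin genes removed come with that common shift. Beyond the scalings themselves, the cause was not tested. With 2 libraries per group, FPKM rounded to 2 decimals and an unknown depth, small differences and the scarcest members cannot be resolved.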

Other observations

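Ratios between related E2 genes were computed after their values were seen and are given with no test. Ube2l6 exceeded Ube2l3, the relative that carries ubiquitin, 836-fold and 804-fold in Ctrl and 904-fold and 1148-fold in Nar, in FPKM. Ube2b exceeded Ube2a, the other RAD6 homologue, 69-fold and 128-fold in Ctrl and 398-fold and 487-fold in Nar, where Ube2a stood at 0.27 and 0.15 FPKM, so that rounding and the low value weigh on the Nar ratios. Ube2l6 exceeded Ube2o 13.3-fold and 7.98-fold in Ctrl and 7.0-fold and 7.05-fold in Nar.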
